A study of Homo sapiens with 3 samples.

Results

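The genes examined were 9 transcription factors: GATA4, GATA6, MAF, MEIS2, TBX3, TBX5, PROX1, NKX2-3 and ZIC1. They were chosen by symbol, as factors tied to endothelium of brain, liver, heart, spleen or lymphatics, and all 9 were found among 20037 protein-coding genes (59679 genes of every kind) of a RefSeq gene table. The cells were hCMEC/D3, human endothelial cells of brain microvessels that have been immortalized and are kept as a line. They were grown untreated to confluence on collagen, and the design holds no other cell type, genotype or treatment. Chromatin accessibility was read from ATAC-seq replicate 2, 1 library in which the Tn5 transposase cuts and tags open DNA, with 22188172 tags kept for calling peaks. The RNA libraries were not used for these genes. With 1 library and no second group there was no replicate error and no test, and each value below describes this library. The submitters' processing notes name GRCh38 and mm10; gene positions here are those of GRCh38.p14.

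Endothelial cells share a core program driven by ETS and SOX factors, and a second layer of factors adds the traits of each organ. GATA4 is a zinc finger factor of the heart and a master regulator of liver sinusoidal endothelium, and GATA6 is its close relative in heart and endoderm. MAF, a large basic leucine zipper protein, also belongs to the sinusoidal program. MEIS2 is a homeodomain partner of PBX and HOX proteins, and TBX5 and TBX3 are T-box factors of the developing heart, TBX3 acting mainly as a repressor. PROX1 sets lymphatic endothelial fate, NKX2-3 patterns the vessels of spleen and gut, and ZIC1 is a zinc finger factor of the developing brain.

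The 9 loci differed widely, from 7.90 peaks per 100 kb at TBX3 to none called at MAF, TBX5 and ZIC1. The TBX3 density was above that of 62.6% of protein-coding genes. In each gene and 50 kb either side, 37 of the list's 106415 peaks were found. GATA4 had 11 peaks, TBX3 had 9, GATA6 had 6, MEIS2 and NKX2-3 had 5 each, and PROX1 had 1. A peak within 1 kb of a gene end, at either end, was present at 4 of the 9 factors (TBX3, GATA6, MEIS2 and NKX2-3), or 44.4%, against 72.8% of protein-coding genes. At least 1 peak in the whole window was present at 6 of 9, against 95.3%, so that 3 of 9 had none, against 4.74%. These shares describe a short list chosen by hand and were not tested. An ATAC library of bulk cells cannot tell fewer cells with an open site from less opening in each cell.

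**Figure D1:**
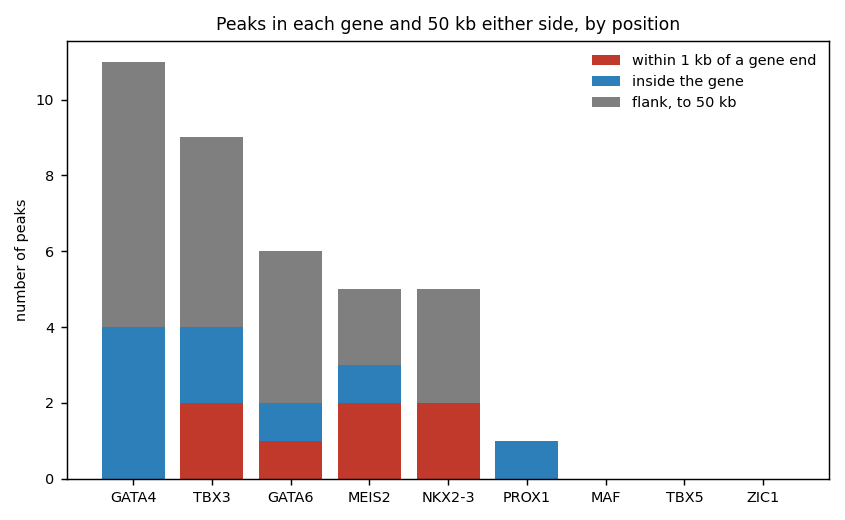
Number of accessible regions (y axis) in each of the 9 genes and 50 kb either side, stacked by position: within 1 kb of a gene end, inside the gene, or in the flank. GATA4 has the most peaks, 11, with none at an end, and MAF, TBX5 and ZIC1 have none.

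The promoter table of RefSeq (GRCh38.p14) held 8 windows for 6 of the factors, each running from 250 bases before to 50 after a start site. GATA4, TBX3 and PROX1 had no entry. A peak overlapped 3 of the 8 windows, 1 each at GATA6, MEIS2 and NKX2-3, against 64.8% of protein-coding promoter windows. By genes, 3 of the 6 had a peak within 1 kb of a start site, against 74.0% of protein-coding genes in the table. The 3 sequences follow to show how the called peaks lie on each promoter. They are written 5′ to 3′ on the strand of the gene, with the bases inside a called peak in capitals. The boundaries come from tags extended to 200 bp, so they do not resolve single bases, and bases outside a call are not shown to be closed.
GATA6, chr18:22169339-22169638, + strand: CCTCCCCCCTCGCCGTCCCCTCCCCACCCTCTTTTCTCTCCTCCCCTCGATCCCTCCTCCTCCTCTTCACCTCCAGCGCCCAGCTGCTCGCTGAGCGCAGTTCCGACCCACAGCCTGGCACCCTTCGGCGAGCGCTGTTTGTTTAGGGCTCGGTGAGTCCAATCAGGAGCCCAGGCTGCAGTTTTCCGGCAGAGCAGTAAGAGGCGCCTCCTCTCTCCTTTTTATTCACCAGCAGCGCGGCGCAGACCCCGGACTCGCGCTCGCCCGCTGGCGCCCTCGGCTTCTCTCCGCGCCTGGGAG
NKX2-3, chr10:99532692-99532991, + strand: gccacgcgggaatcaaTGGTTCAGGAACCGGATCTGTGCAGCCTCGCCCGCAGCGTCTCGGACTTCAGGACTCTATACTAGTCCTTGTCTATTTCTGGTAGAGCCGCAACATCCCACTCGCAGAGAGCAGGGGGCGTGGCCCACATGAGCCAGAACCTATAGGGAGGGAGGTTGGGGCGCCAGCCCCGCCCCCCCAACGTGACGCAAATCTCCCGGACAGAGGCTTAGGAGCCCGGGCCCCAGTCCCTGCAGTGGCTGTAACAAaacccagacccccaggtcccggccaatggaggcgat
MEIS2, chr15:37099057-37099356, - strand: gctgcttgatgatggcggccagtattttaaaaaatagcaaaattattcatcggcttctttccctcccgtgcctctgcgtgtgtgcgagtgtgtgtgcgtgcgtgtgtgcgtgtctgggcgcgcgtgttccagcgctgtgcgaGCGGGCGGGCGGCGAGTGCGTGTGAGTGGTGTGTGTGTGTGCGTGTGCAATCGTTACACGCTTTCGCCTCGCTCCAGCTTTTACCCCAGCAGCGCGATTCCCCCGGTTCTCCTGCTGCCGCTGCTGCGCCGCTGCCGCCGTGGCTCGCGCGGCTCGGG
The GATA6 window lay under its peak over all 300 bases, the NKX2-3 window over 248 bases and the MEIS2 window over 158 bases, on the side of the start site. The other MEIS2 window, which begins further inside the gene, was not overlapped.

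Of the 5 windows without a peak, 1 each of MAF, ZIC1 and TBX5 is shown, with the matches to 10 short motifs in capitals. The motifs were searched on both strands. For the families of the factors themselves they were AGATAA for the GATA proteins, GGTGTGA for the T-box proteins, TNAAGTG for the NKX2 proteins, TGACAG for the MEIS proteins, CAGCAGG for the ZIC proteins and TGCTGA, one side of the MAF site. The others were CNGGAAG for ETS proteins, TGANTCA for AP-1, GGGCGG for the SP and KLF proteins and TATAAA for the TATA box.
MAF, chr16:79600688-79600987, - strand: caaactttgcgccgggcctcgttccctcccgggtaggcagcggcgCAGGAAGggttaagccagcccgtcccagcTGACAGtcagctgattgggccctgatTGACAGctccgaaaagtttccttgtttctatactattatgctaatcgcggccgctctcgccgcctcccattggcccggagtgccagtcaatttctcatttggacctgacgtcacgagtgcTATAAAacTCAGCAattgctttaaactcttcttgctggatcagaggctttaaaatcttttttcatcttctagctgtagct
ZIC1, chr3:147409115-147409414, + strand: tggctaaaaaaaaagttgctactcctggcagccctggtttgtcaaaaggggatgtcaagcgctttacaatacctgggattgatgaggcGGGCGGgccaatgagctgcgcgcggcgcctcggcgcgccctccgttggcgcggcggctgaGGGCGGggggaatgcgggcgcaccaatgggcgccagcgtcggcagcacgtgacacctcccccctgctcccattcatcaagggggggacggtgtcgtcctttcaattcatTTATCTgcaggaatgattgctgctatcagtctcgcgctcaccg
TBX5, chr12:114407963-114408262, - strand: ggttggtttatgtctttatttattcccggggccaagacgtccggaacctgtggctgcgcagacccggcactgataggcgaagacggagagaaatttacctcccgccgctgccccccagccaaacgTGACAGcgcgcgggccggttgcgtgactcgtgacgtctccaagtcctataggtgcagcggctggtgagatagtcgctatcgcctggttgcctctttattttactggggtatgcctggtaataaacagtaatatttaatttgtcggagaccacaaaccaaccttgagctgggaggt
The MAF promoter held TATAAA 30 bases before the start site, TGACAG at 2 positions, CAGGAAG, and TCAGCA, the reverse complement of TGCTGA. In all 35116 promoter windows of the table, TATAAA was present in 11.5%, TGACAG in 15.8%, CNGGAAG in 33.6% and TGCTGA in 17.3%. ZIC1 held GGGCGG at 2 positions, a motif of 45.0% of windows, and TTATCT, the reverse complement of AGATAA, which 10.3% hold. TBX5 held TGACAG in this window and none of the motifs in its other window. The MEIS2 window without a peak, not shown, held TGCTGA. Among the open promoters, GATA6 held none of the 10 motifs, NKX2-3 held GGGCGG, and MEIS2 held GGGCGG and CAGCAGG, the latter in 10.5% of windows. Over the table, shares differed between windows with and without a peak: GGGCGG was in 68.6% of windows under a peak and in 19.4% of those without, and TATAAA in 5.61% and 17.9%. A match is a string of letters and says nothing on binding.

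The 8 windows were compared by their CpG pairs, the dinucleotide that is frequent in the promoters of most widely used genes and of many developmental regulators. They held from 15 to 35 pairs, compared with a median of 21.0 over protein-coding promoter windows, and 3 of the 8 were above that median. Of protein-coding windows with at least 15 pairs, a limit set by the factors' own lowest value, 87.4% were overlapped by a peak, and of those with at least 20 pairs 89.3%. The set with at least 15 pairs had a median of 29.0, above most of the factors' windows. MAF, NKX2-3 and the lower windows of TBX5 and MEIS2 fell within 15 to 19 pairs. In that range 76.6% of protein-coding windows were overlapped, a closer reference for them. The share was 87.6% at 20 to 24 pairs and 89.9% at 25 to 29. The ZIC1 window had 26 CpG pairs and no peak, and the GATA6 window had 25 and lay wholly under one. The TBX5 windows had 21 and 15 pairs and MAF had 16, without a peak, while NKX2-3 had 18 with a peak. The CpG numbers of windows with a peak, 18 to 35, overlapped those without, 15 to 26. MEIS2 had both kinds, with 35 pairs in the window under a peak and 16 in the other.

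**Figure D2:**
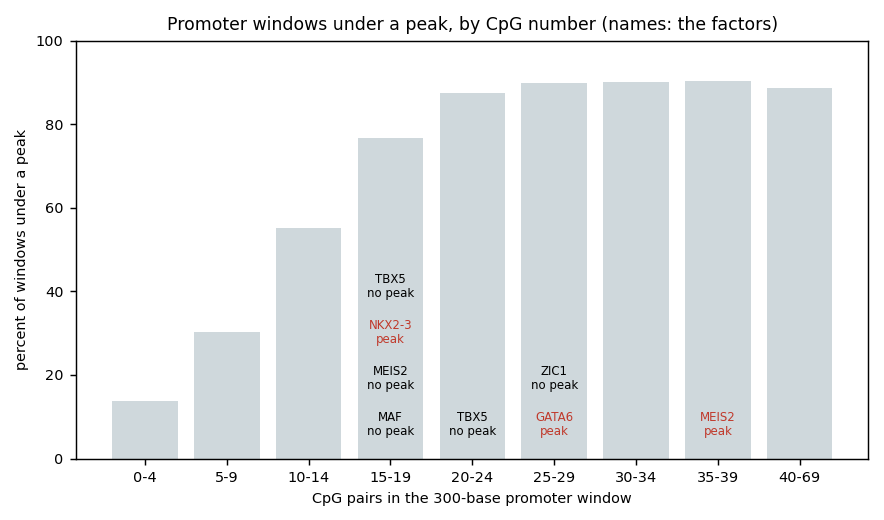
Share of protein-coding promoter windows under a peak (y axis, percent) by the number of CpG pairs in the 300-base window (x axis), with the 8 windows of 6 factors named in their bins. The share rises from 13.7% at 0 to 4 pairs to 90.3% at 35 to 39, and 4 of the 5 windows without a peak belong to MAF, TBX5 and ZIC1.

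TBX3 had the strongest accessible end of the 9 factors. Its high-coordinate end, where the antisense gene TBX3-AS1 overlaps it, carried a peak of 1232 bp (chromosome 12, 114683815 to 114685046) with a pileup of 107 tags, the mean depth of extended tags over the peak. That pileup was above 99.9% of all peaks in the list and above the best end peak of 99.4% of the 14595 protein-coding genes that have one. The fold of this peak over its local background was 5.64 and its −log10 q was 49.0, both the authors' values. By fold it was above 72.5% of all peaks, its local background being 18.2 tags. The other end had a peak of 411 bp at a distance of 413 bp from the gene, with a pileup of 34.7 tags. Inside the gene, peaks of 391 and 652 bp had pileups of 26.5 and 36.2 tags. On the low-coordinate side, 5 flank peaks lay 1.40, 7.28, 13.6, 32.9 and 44.4 kb away, and none lay within 50 kb of the other side. The flank peak at 13.6 kb (114655922 to 114656671) had 58.0 tags of pileup and 8.15-fold enrichment, a higher fold than the peak at the gene end. None of the 5 flank peaks overlapped or lay within 1 kb of another gene. The gene is 13.9 kb long, and 6.01% of its window lay under peaks, compared with a median of 3.86% over protein-coding genes.

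TBX5, the neighbour of TBX3 on chromosome 12, had no peak. The 2 genes are 262 kb apart with no protein-coding gene between them. Of the 7 peaks in that interval, 6 lay nearer to TBX3 than to TBX5. The one nearest to TBX5 (114508541 to 114508875) was 335 bp long with a pileup of 13.5 tags, 100 kb from the gene. The stretch without a peak around TBX5 spanned 344 kb. The related pair TBX2 and TBX4 on chromosome 17 had an end peak at each gene, of 35.4 and 11.4 tags. TBX4 had no peak within 1 kb of a listed start site, and TBX2 had no start site listed. Of the 15 other T-box genes, 10 had an end peak, and TBX22 and TBXT had no peak in the window.

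GATA6 had an open start site. The peak there (chromosome 18, 22169148 to 22171174) was 2027 bp long, longer than 99.5% of all peaks, with 39.3 tags of pileup and 4.28-fold enrichment. By pileup it was above the best end peak of 38.2% of protein-coding genes with one, so it was wide and of middling depth. It also lay within 1 kb of GATA6-AS1, the antisense gene beside it. The deepest peak of the window lay 20.9 kb beyond the high-coordinate end (22223427 to 22224176) with 46.4 tags of pileup and 9.03-fold enrichment, above 98.1% of all peaks by fold. That peak was inside LOC105372017, a noncoding gene. The single peak inside GATA6 had 13.9 tags, and the 3 remaining flank peaks had 15.1 to 25.8 tags.

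GATA4 had 11 peaks, the highest number, and none at either end. The nearest lay 2.31 kb beyond the high-coordinate end, in the noncoding gene LINC02905. Inside the gene, 4 peaks of 200 to 640 bp had pileups of 10.4, 15.6, 18.2 and 18.3 tags, each below the list's median of 21.6. The 7 flank peaks had 12.1 to 72.1 tags, and the deepest (chromosome 8, 11802133 to 11803430) lay 42.1 kb away in FDFT1, which encodes squalene synthase, and within 1 kb of an end of LOC105379243. A peak of 41.5 tags lay at an end of NEIL2, a DNA repair gene. Of the 7, 5 overlapped another gene, so most of the count outside GATA4 lay in or at its neighbours. Its density of 6.01 peaks per 100 kb was close to the median of 6.37 over protein-coding genes. Among the other GATA genes, GATA2, which acts in blood and endothelium, had an end peak of 42.4 tags and 11 peaks in its window. GATA1 had an end peak of 12.2 tags, GATA3 one of 8.86 tags, and GATA5 none. The GATA1 peak was not within 1 kb of a listed start site.

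**Figure D3:**
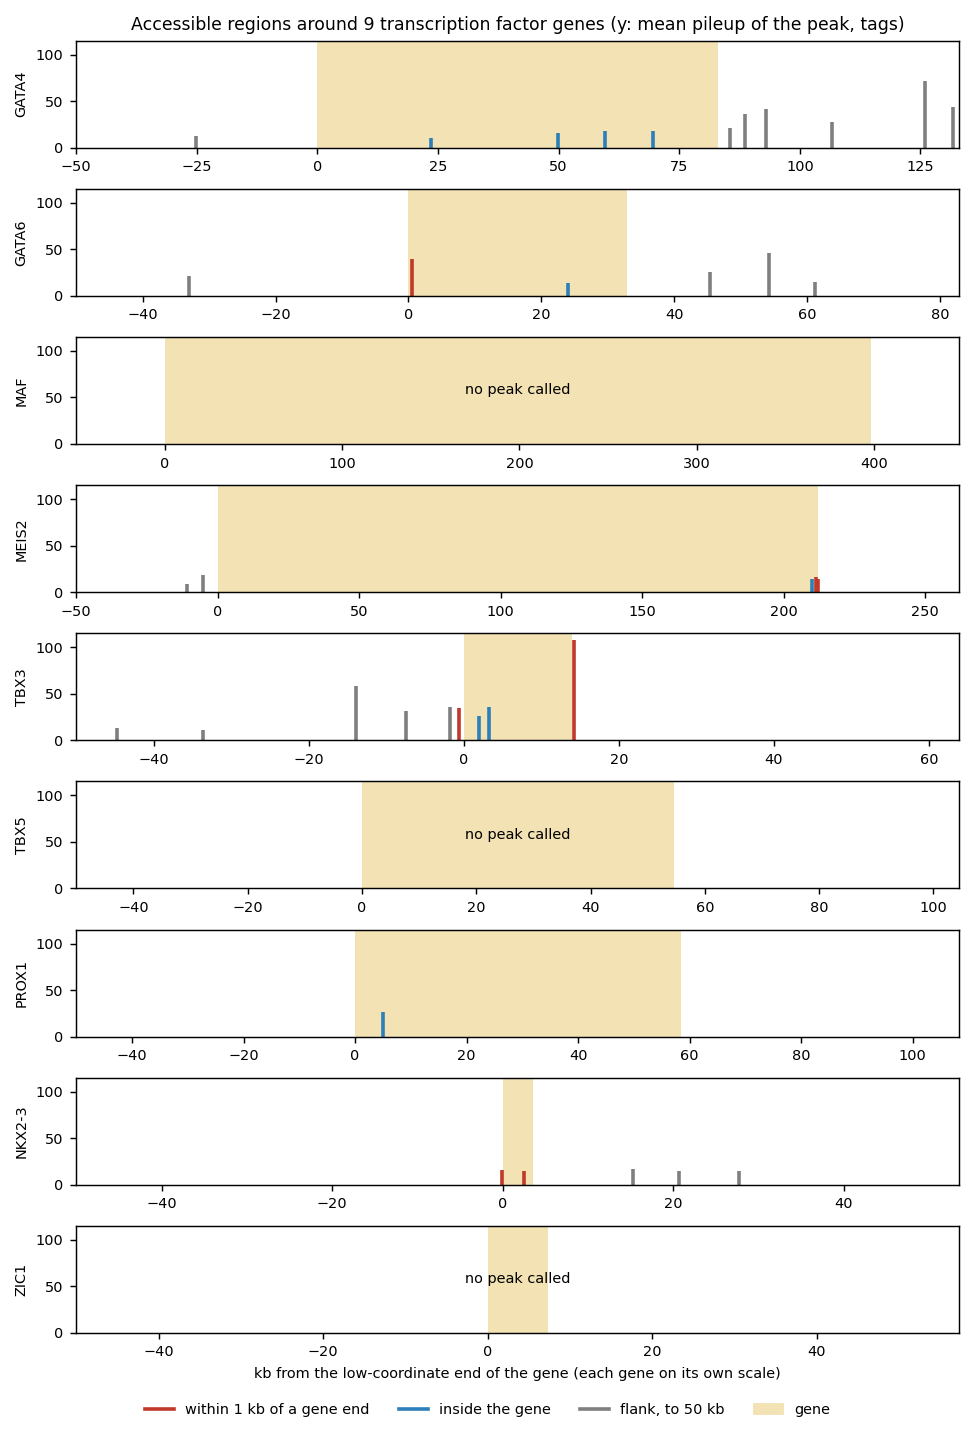
Each panel shows 1 gene (shaded) with 50 kb either side, on its own x axis in kb from the low-coordinate end. Each line is a peak at its centre, with its mean pileup in tags as height, coloured by position. TBX3 has the highest line, 107 tags at its high-coordinate end, and the panels of MAF, TBX5 and ZIC1 are empty.

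MEIS2 and NKX2-3 had end peaks of low depth. Of the 2 MEIS2 start sites in the promoter table, 1 lay under a peak of 217 bp (chromosome 15, 37098998 to 37099214) with 14.4 tags and a fold of 2.66. Because RefSeq extends the gene further, that peak counted as inside, 2.10 kb from the end. The 2 end peaks lay at 0 and 728 bp from the end, with 13.6 and 16.4 tags and folds of 2.90 and 3.32. All 3 lay at the end where the gene starts, and 2 flank peaks of 8.67 and 18.8 tags lay beyond the other. Between them, a stretch of 215 kb covering nearly all of the gene had no peak. The better end peak exceeded the best end peak of 8.93% of protein-coding genes with one. Of 8 other MEIS and PBX family genes, 7 had an end peak, with 31.2 tags at MEIS1 and 77.2 at PBX3. The PBX3 peak was not within 1 kb of a listed start site.

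NKX2-3, a gene of 3.58 kb, had a peak of 248 bp over its start site (chromosome 10, 99532708 to 99532955) with 16.0 tags and a fold of 3.60. A second peak of 475 bp, inside the gene 816 bp from the other end, had 14.4 tags. The 3 flank peaks lay 11.5, 16.9 and 23.9 kb beyond the gene with 14.2 to 17.1 tags. The 5 pileups thus ran from 14.2 to 17.1 tags, all below the list's median of 21.6. Of 8 other NKX genes, 3 had an end peak, among them NKX2-1 with 19.1 tags and NKX2-5, a heart factor, with 15.3. NKX3-2, without an end peak, had a peak within 1 kb of a listed start site.

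PROX1 had a single peak, inside the gene, 4.42 kb from its low-coordinate end (chromosome 1, 213987573 to 213988743). It was 1171 bp long, longer than 91.9% of all peaks, with 25.9 tags and a fold of 5.05. Neither end had a peak, and none was called in the part shared with the antisense gene PROX1-AS1. The next peaks outside lay 221 kb away on one side and 65.9 kb on the other. A stretch of 225 kb without a peak ended at this one. PROX2 had an end peak of 15.7 tags, not within 1 kb of a listed start site.

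MAF and ZIC1 lay in long stretches with no called peak. MAF, 398 kb long as annotated, lay in a stretch of 1650 kb on chromosome 16, from a peak ending at 78123135 to one starting at 79770523. This was the 6th longest of 3549 intervals between neighbouring peaks on that chromosome. It held 13 genes in full, of which MAF was the only protein-coding one, and most of WWOX, a very long gene that overlaps it by 10046 bp. Over the whole list the median interval was 8.78 kb and the 99th percentile was 261 kb. Among long genes an empty window was uncommon: of 3356 protein-coding genes of at least 100 kb, 3.61% had no peak in the same window. Of 6 other MAF family genes, 5 had an end peak, including the small MAF gene MAFF with 56.3 tags.

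ZIC1 lay in a stretch of 413 kb on chromosome 3 (peaks ending at 147299012 and starting at 147712450). The stretch also held ZIC4, 2.82 kb from ZIC1, so this pair of neighbours had no peak at either gene. ZIC2 had an end peak of 18.3 tags, and ZIC5, its neighbour on chromosome 13, had 2 peaks inside and none at an end. A peak did lie within 1 kb of a listed start site of ZIC5.

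**Figure D4:**
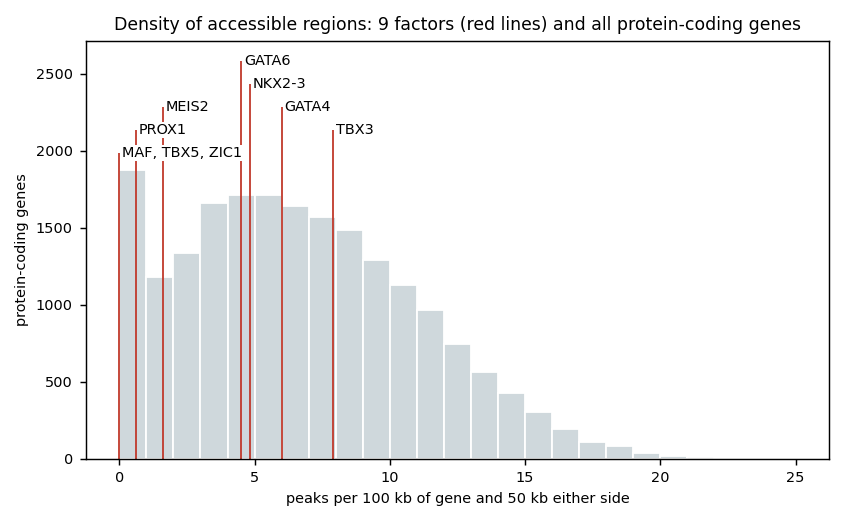
Number of protein-coding genes (y axis) by peaks per 100 kb of the gene and 50 kb either side (x axis), with the 9 factors as red lines. Only TBX3, at 7.90, lies above the median of 6.37.

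The density of peaks placed 8 of the 9 factors below the median protein-coding gene of 6.37 peaks per 100 kb. TBX3 had 7.90, above 62.6% of protein-coding genes, GATA4 had 6.01, NKX2-3 had 4.83, GATA6 had 4.51, MEIS2 had 1.60 and PROX1 had 0.631. A peak inside the gene and away from its ends was found at 5 of 9 factors, against 55.9% of protein-coding genes. A peak in the gene or at an end was found at 6 of 9, against 83.7%. Over the 37 peaks the median pileup was 18.8 tags, compared with 21.6 over the list, and the median length was 486 bp, compared with 452 bp. By position, the 7 end peaks had a median of 16.4 tags, compared with 40.1 over 15869 peaks at protein-coding gene ends. These 7 came from 4 genes, with 2 each at TBX3, MEIS2 and NKX2-3. By gene, the highest end peak had a median of 27.9 tags, compared with 45.7 over protein-coding genes with one. The 9 inside peaks had a median of 18.1 tags (20.3 over 48493 inside peaks of the list), and the 21 flank peaks had 21.3. The median was 19.4 over the list's 42053 peaks outside protein-coding genes and away from their ends. That set is not a like one, since some flank peaks overlapped a protein-coding neighbour. Of the flank peaks, 11 were away from every other annotated gene.

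The cell type label was checked by the same measure. An end peak was found at 10 of 10 endothelial markers, among them CDH5 (62.7 tags) and CLDN5 (51.0 tags). CDH5, CLDN5, PECAM1 and ESAM had no start site listed. It was also found at 12 of 14 general endothelial factors, whose median density was 12.2 peaks per 100 kb. FLI1 and MEF2C lacked one, but MEF2C had 4 peaks within 1 kb of listed start sites, and FLI1 had no start site listed. An end peak was found at 15 of 25 markers of hepatocytes, cardiomyocytes, neurons and glia, mural and blood cells. By type these were 3 of 5 hepatocyte, 2 of 5 cardiomyocyte, 4 of 5 neuronal and glial, 4 of 5 mural and 2 of 5 blood markers. The lists were chosen with earlier results of these data known, so these counts are no independent check of the cell type label. Of 11 other factors linked with endothelium of particular organs, 9 had an end peak (81.8%, against 72.8% of protein-coding genes). They included the brain endothelial factors FOXF2 (9.17 tags), FOXQ1 (14.4 tags) and LEF1 (15.5 tags). The lung factor FOXF1 had 42.1 tags and the venous and lymphatic factor NR2F2 had 44.0 tags. LEF1 and NR2F2 had no peak within 1 kb of a listed start site, and FOXF1 had no start site listed. HAND2 and TLX1 had no end peak. Over all 46 paralogues of the 9 factors, 30 had an end peak (65.2%) and 4 had no peak in the window (8.70%).

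**Figure D5:**
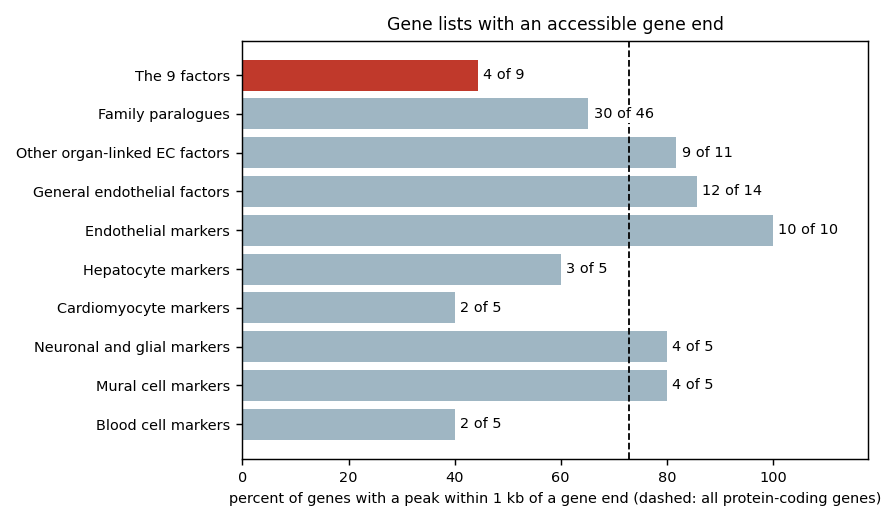
Percent of genes with a peak within 1 kb of a gene end (x axis) for each list, with counts beside the bars and all protein-coding genes as the dashed line at 72.8%. The 9 factors stand at 44.4%, and the endothelial markers at 10 of 10.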

How the data were processed

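Of 3 libraries, the 2 RNA libraries were not analysed here, since no table used here pairs their Ensembl transcripts with genes. For the ATAC library the authors deposited a list of broad peaks from MACS 2.2.7.1. Per the file headers the call used no control, single-end mode, a shift of -100 bp, an extension to 200 bp, a q of 0.05 (strong) and 0.1 (broad), and 22188172 of 31532245 tags kept at 1 per position. The effective genome size was the caller's mouse preset, 1870000000 bp, which sets the background floor at 2.37 tags; 15 of the 37 member peaks and 35.2% of all peaks had a local background within 1% of it. The authors' deposited columns are the pileup signal in tags (a mean over the region in this mode), the fold ratio, and −log10 p-values and −log10 q-values; none is scaled to depth. The aligner and build for this file are not given in its header. The submitters' processing notes list Bowtie2, SAMtools 1.13, Picard, GRCh38 and mm10. Start sites of GRCh38.p14 lay under a peak in 62.5% of 22199 protein-coding promoter windows, and in at most 4.03% when every peak was moved by 2000 to 50000 bp.

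Peaks were placed with Python 3.11.15 and pandas 2.3.3 by 1 bp of overlap, in the order end (1 kb either side of a gene end), inside, flank (50 kb). The placement was tested on simulated data. Exons were not annotated here. The members, lists and motifs were chosen with earlier results of these data known. All members are named, with their deepest end peak and deepest peak overall; other lists are given as counts and examples, and some of their genes are not reported here. No test was made. Alternatives were other windows, flanks, overlaps and peak filters.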

Additional observations from a re-analysis of the deposited data

How the results depend on the processing

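The 8 alternatives were end windows of 500 and 2500 bp, flanks of 20 and 100 kb, an overlap of at least 200 bp, and peaks with −log10 q of at least 5, a fold of at least 4 or a pileup of at least 20 tags. The flank of 100 kb was the 1 alternative that could add a peak around MAF, TBX5 and ZIC1, and it added none. At TBX5 the nearest peak lay 100 kb from the gene as rounded, just past the edge of that flank. With the pileup filter MEIS2 and NKX2-3 also had no peak, so that 5 factors had none. TBX3 and GATA6 kept an end peak under the end windows, the overlap and the 3 peak filters. The count of 4 factors with an end peak became 2 under each of the 3 peak filters, where MEIS2 and NKX2-3 lost theirs, against 66.7%, 56.0% and 63.4% of protein-coding genes. At 2500 bp it became 5, GATA4 being added, against 79.2%. The count of 3 factors with a peak at the start site became 1 under each of the 3 filters, against 68.4%, 57.1% and 65.5% of protein-coding genes. The 37 peaks became 27 with flanks of 20 kb, 55 with flanks of 100 kb and 27 with the q filter. They became 23 with the fold filter and 18 with the pileup filter. Their median pileup became 18.1 tags with flanks of 100 kb, 25.9 with the q filter and 21.3 with the fold filter, against 27.8 and 25.3 for the list so filtered. Fewer peaks under a filter follow from its construction. Among values of single factors that were not 0 in both settings, 37 stayed within 1.5 times and 24 moved. With flanks of 100 kb the peaks around NKX2-3 went from 5 to 12 and those around PROX1 from 1 to 3, and with the q filter those around MEIS2 went from 5 to 1. No paired analysis was possible because 1 ATAC library was used and no result comes from a test. The lowest pileup called was 8.0 tags, so at a gene without a peak accessibility was not detectable at this depth and setting.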
